A study of Mus musculus with 36 samples.

Results

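The comparison set the 6 vehicle arrays labelled Hippo against the 6 vehicle arrays labelled Cortex, to show which genes mark one sample of the control brain off from the other. These 12 arrays were taken by their labels out of 36 in the series, which also holds 6 vehicle arrays labelled Hypoth and the arrays of tamoxifen-injected mice in all 3 tissues. All mice were C57BL/6J animals of the genotype Cre+;Dicer lox/lox, in which a tamoxifen-dependent Cre recombinase (CreERT2) is driven by the Camk2a promoter and an exon of Dicer is flanked by loxP sites. The controls of both tissues therefore carried the transgene and the floxed alleles unrecombined, and received a mixture of sunflower seed oil and ethanol over 5 days at 8 weeks of age. The tissue was taken 4 or 8 weeks after the injections, in the first hours after light onset and by dissection from sagittal slices, from 3 animals per tissue and time, each array from 1 animal. No animal gave both a Hippo and a Cortex array: 0 were shared. Tissue, set of animals and normalization run cannot be told apart, since the authors normalized each tissue on its own.

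Because of these separate runs, levels on the deposited log2 scale were not set side by side. Each array was turned into percentile ranks instead: a probe set, the group of short probes that reads 1 transcript, has a percentile of 100 if it is the brightest and 0 if it is the dimmest of 45037 on its array. A difference of 1 point means that a gene stood 1 percentile higher. A gene was represented by the probe set with the highest mean percentile, and a gene was called at an adjusted p under 0.05 by limma over all 18193 genes.

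The hippocampus and the neocortex are both parts of the forebrain built around excitatory neurons that load glutamate with the vesicular transporter Slc17a7. Their principal neurons are set up by related regulators, among them Neurod6 and Emx1, with Tbr1 and Fezf2 for the deep cortical layers and Prox1 for the granule cells of the dentate gyrus. Thalamus, midbrain and hindbrain rely largely on the transporter Slc17a6 and on other homeobox, GATA and AP-2 genes. The labels are set first against genes known to mark each region. These genes were chosen with earlier results of these data known.

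The arrays labelled Hippo did not show the genes that define the hippocampus. Slc17a7 lay at percentiles of 20.9 (lowest), 23.4 (median) and 25.2 (highest) in the 6 Hippo vehicle arrays, against 92.6, 93.2 and 93.8 in the 6 Cortex vehicle arrays. Neurod6 reached 2.80, 6.63 and 10.2 in Hippo arrays and 63.5, 83.6 and 86.5 in Cortex arrays. Spink8, a marker of CA1 pyramidal cells, reached 10.3, 13.7 and 19.1 in Hippo arrays and 55.8, 62.5 and 69.0 in Cortex arrays. For all 3 genes every Hippo array lay below every Cortex array. The granule cell genes were no higher: Prox1 averaged 25.2 ± 1.12 in Hippo and 28.2 ± 5.12 in Cortex arrays (SD, n = 6 each, adjusted p = 0.22), and Dsp averaged 12.2 ± 2.87 in Hippo and 18.03 ± 2.53 in Cortex arrays. On the other probe sets of Prox1 the Hippo arrays were higher, at a mean percentile of 31.1 against 15.2 and of 6.79 against 1.52 in Cortex arrays, all of them low on the array.

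Other hippocampal markers, Zbtb20 and Cabp7, were higher in the Hippo arrays. Zbtb20, a zinc finger regulator of hippocampal neurons, had percentiles of 89.5, 91.5 and 92.4 in Hippo arrays against 78.2, 79.8 and 84.98 in Cortex arrays, but it was as high in the Hypoth arrays, with 90.3, 91.1 and 91.6. Cabp7, a calcium-binding protein, had 93.1, 94.4 and 96.5 in Hippo arrays, 81.9, 82.5 and 83.8 in Hypoth arrays and 83.3, 85.5 and 86.7 in Cortex arrays. Wfs1 fell, with a mean percentile of 87.6 ± 1.65 in Hippo arrays against 91.4 ± 0.753 in Cortex arrays, and Fibcd1 and C1ql2 did not pass the test. The data thus go against the label, and the samples are called Hippo arrays here only after their label, with no tissue name in its place.

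The Cortex and the Hypoth arrays did show the genes of their labels. In the Cortex arrays Tbr1 averaged 80.7 ± 5.004, Fezf2 82.3 ± 1.51, Cux2 94.5 ± 0.545 and Lamp5 99.0 ± 0.153 (SD, n = 6). The orexin gene Hcrt lay between 99.1 and 99.6 in the 6 Hypoth vehicle arrays and the vasopressin gene Avp between 98.5 and 99.6, while neither exceeded 48.5 in any Hippo or Cortex vehicle array.

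One array of the series stood apart from the other Hippo arrays. In the Hippo array of the tamoxifen-injected (cKO) group at 8 weeks, replicate 1, Slc17a7 was at percentile 72.5, Neurod6 at 87.9, Spink8 at 81.5, Dsp at 78.8 and C1ql2 at 81.2. In the other 5 Hippo cKO arrays Slc17a7 lay between 18.4 and 30.0, Neurod6 between 0.443 and 9.145, and Spink8 between 13.6 and 18.5. Among the Hippo arrays it alone was high for these forebrain and hippocampal markers. It still had Shox2 at 90.7 and Pax7 at 78.6, just below the 93.8 to 95.6 and the 78.8 to 83.5 of the other 5. It enters no vehicle comparison. The main cKO counts and the cKO differences of named genes below are given with and without it. The Dicer1 percentiles are not given both ways. Counts with cKO arrays under other processing settings include it, unless an array is left out.

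**Figure D1:**
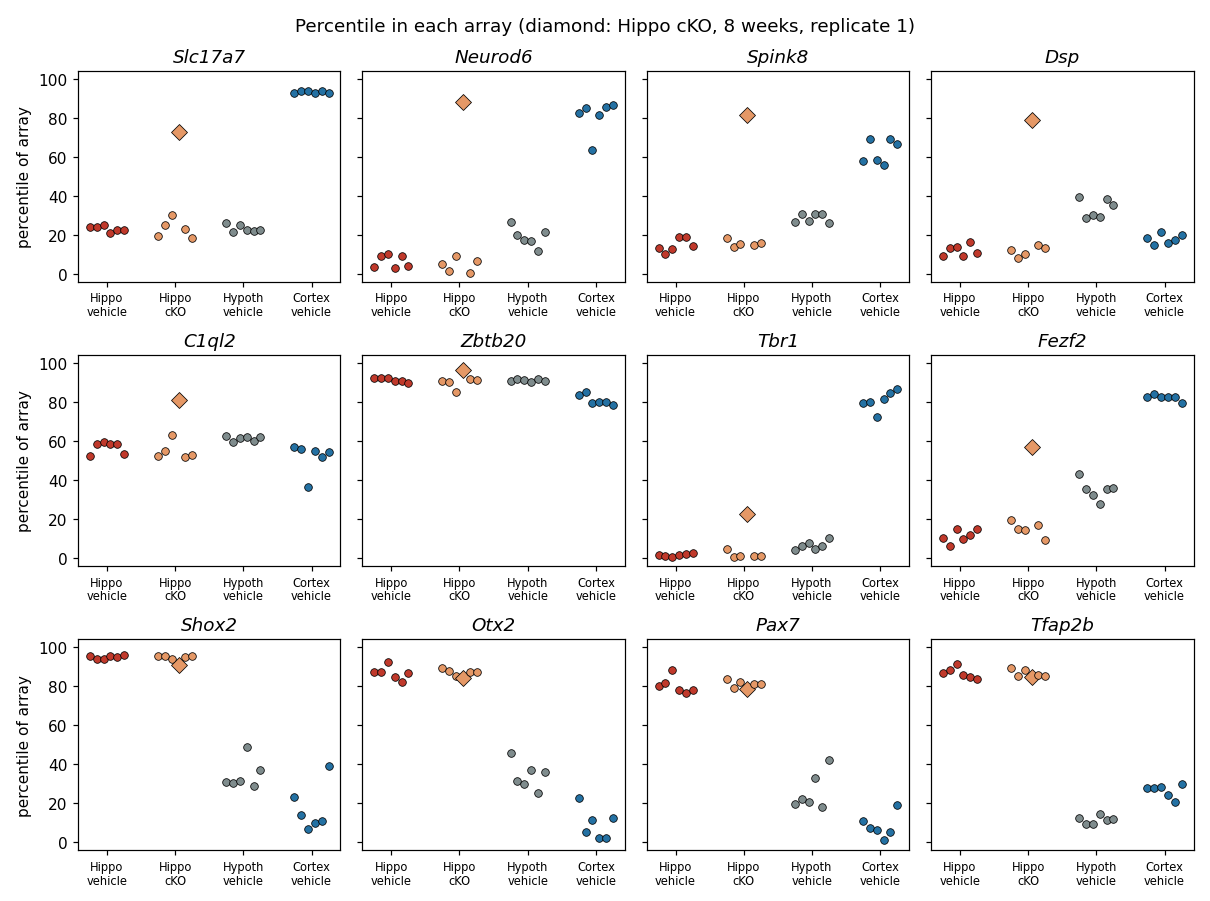
Percentile on the array (vertical axis) of 12 genes in each vehicle Hippo, cKO Hippo, vehicle Hypoth and vehicle Cortex array, 6 points per group. Slc17a7, Neurod6, Spink8, Tbr1 and Fezf2 lie low in every vehicle Hippo array and Shox2, Otx2, Pax7 and Tfap2b high. The diamond, the cKO Hippo array at 8 weeks, replicate 1, is high for Slc17a7, Neurod6 and Spink8 and also for Shox2 and Pax7.

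Over all genes the 2 sets of arrays differed widely. Of 18193 genes, 5669 were higher in Hippo arrays (31.2%) and 6304 were higher in Cortex arrays (34.7%). In 3886 genes (21.4%) all 6 Hippo arrays lay above all 6 Cortex arrays, and in 4441 genes (24.4%) all lay below. Most differences were small, with a median size of 5.10 points among the called genes, or 0.45 on a log2 scale on which all 12 arrays were given 1 common distribution. A difference of 20 points or more was found in 173 genes higher in Hippo arrays (0.951%) and in 306 genes higher in Cortex arrays (1.68%), and the single genes with the largest differences below come from these. The gene lists further on are counted at the adjusted p alone, and the shares to set beside them are the 31.2% and 34.7% of all genes. The split between the directions depends on the scale: on the deposited log2 values, where the median of all genes stood 0.47 higher in Hippo arrays, 13224 genes were higher in Hippo and 1967 in Cortex arrays. Among the 4585 genes below percentile 40 in both tissues 2402 were called, and ranks in that range are ranks of dim probe sets. The 3′ minus 5′ signal of the actin control probe sets lay between 0.755 and 0.902 log2 in the Hippo arrays and between 1.07 and 1.48 in the Cortex arrays, and its part in the differences was not tested.

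**Figure D2:**
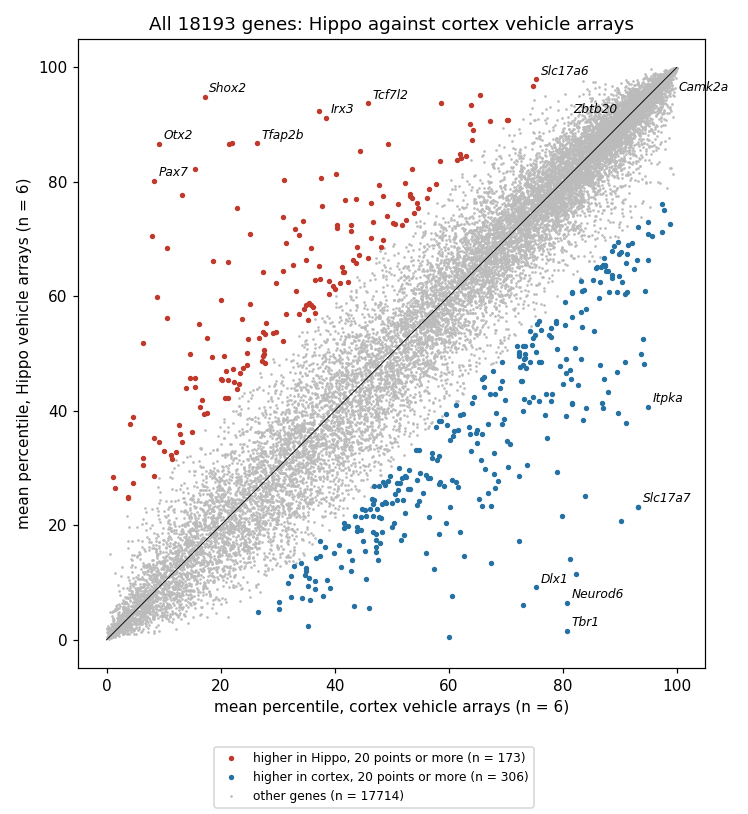
Mean percentile of each of 18193 genes in the 6 vehicle Hippo arrays (vertical axis) against that in the 6 vehicle Cortex arrays (horizontal axis), with the line of equal percentiles. Red points are the 173 called genes at least 20 points higher in Hippo arrays, blue points the 306 at least 20 points higher in Cortex arrays.

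Of the 15 genes with the largest differences in favour of the Hippo arrays, 10 code for transcription factors, a count made after the genes were seen and with no share over all genes beside it: the homeobox genes Shox2, Otx2, Pax7, Lhx9, Irx5, Irx3 and Uncx, the zinc finger gene Gata3, the AP-2 gene Tfap2b, and Ebf3. The others were the glycine receptor gene Glra1, Mab21l1, the long non-coding RNA Lhx1os, the tight junction scaffold Patj and the diacylglycerol kinase Dgkk. All 15 were at a low or middling level in the Cortex arrays, where their means lay between 7.93 (Gata3) and 38.5 (Irx3).

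Shox2, a homeobox gene of thalamic, midbrain and spinal neurons, showed the widest difference, with percentiles of 93.7, 95.1 and 95.9 in Hippo arrays against 6.86, 12.3 and 39.1 in Cortex arrays (lowest, median and highest of 6). It stood 77.69 ± 4.50 points higher in Hippo arrays (SE, adjusted p = 3.2e-08), and the groups were far apart. Otx2, which patterns the forebrain and midbrain, had 81.9, 86.8 and 92.5 in Hippo arrays and 2.16, 8.10 and 22.4 in Cortex arrays, a difference of 77.45 ± 2.78 points (adjusted p = 6.6e-10). Otx2 is also a gene of the choroid plexus. Ttr, another gene of that tissue, averaged 83.8 ± 12.7 in Hippo and 95.1 ± 6.94 in Cortex arrays. Of 18 listed choroid plexus genes 3, Otx2 among them, were higher in Hippo and 9 in Cortex arrays. The shares over all genes were 31.2% and 34.7%. The median over the list ranged from 38.6 to 42.1 in Hippo and from 34.3 to 46.9 in Cortex vehicle arrays. The part of choroid plexus in the Otx2 difference was not tested. Pax7, a paired box gene of the dorsal midbrain, had 76.5, 78.9 and 88.1 in Hippo arrays and 0.943, 6.82 and 19.3 in Cortex arrays (71.89 ± 2.68 points, adjusted p = 8.6e-10).

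Further transcription factors followed. Lhx9 averaged 86.8 ± 4.04 in Hippo and 22.0 ± 9.90 in Cortex arrays, Gata3 70.6 ± 3.34 and 7.93 ± 4.79, and Tfap2b 86.7 ± 2.85 and 26.4 ± 3.36 in the same order (SD, n = 6 each). For Shox2, Pax7, Lhx9, Tfap2b, Ebf3 and Mab21l1 each of the gene's other probe sets was also higher in Hippo arrays. For Patj 1 of its 4 probe sets was lower, at a mean percentile of 10.7 in Hippo against 21.4 in Cortex arrays.

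The stretch before the start of a few of these genes is shown beside that of genes higher in Cortex arrays, as context for the genes of the largest differences in each direction. Each sequence holds the 250 bases upstream of the RefSeq start on GRCm38.p6, on the strand of the gene, 5′ to 3′, with CG dinucleotides in capitals.
Shox2 (chr3:66981772-66982021, minus strand): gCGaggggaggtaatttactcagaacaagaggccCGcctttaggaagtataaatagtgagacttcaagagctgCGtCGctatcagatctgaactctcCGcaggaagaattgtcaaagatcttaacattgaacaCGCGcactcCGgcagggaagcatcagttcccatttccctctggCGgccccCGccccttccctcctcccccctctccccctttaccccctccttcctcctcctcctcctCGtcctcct
Pax7 (chr4:139832969-139833218, minus strand): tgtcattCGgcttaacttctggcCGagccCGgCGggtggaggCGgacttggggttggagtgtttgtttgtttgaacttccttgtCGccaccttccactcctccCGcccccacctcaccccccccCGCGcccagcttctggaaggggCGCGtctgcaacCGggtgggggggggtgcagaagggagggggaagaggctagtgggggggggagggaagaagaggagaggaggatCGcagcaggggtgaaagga
Tbr1 (chr2:61804203-61804452, plus strand): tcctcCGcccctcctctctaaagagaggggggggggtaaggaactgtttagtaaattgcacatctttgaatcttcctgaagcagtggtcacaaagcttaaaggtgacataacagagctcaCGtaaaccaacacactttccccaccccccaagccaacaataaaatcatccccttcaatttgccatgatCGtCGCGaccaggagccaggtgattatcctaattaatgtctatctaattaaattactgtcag
Neurod6 (chr6:55681264-55681513, minus strand): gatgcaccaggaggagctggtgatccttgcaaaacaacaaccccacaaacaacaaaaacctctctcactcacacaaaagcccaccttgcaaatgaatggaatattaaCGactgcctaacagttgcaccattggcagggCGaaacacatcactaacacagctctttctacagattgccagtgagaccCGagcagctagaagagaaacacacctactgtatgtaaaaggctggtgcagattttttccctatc
The upstream stretches of Shox2 and Pax7 held 11 and 13 CG dinucleotides, and those of Tbr1 and Neurod6 held 5 and 3. Over the 12 genes with a RefSeq promoter among the 15 higher in Hippo arrays the median was 16 (range 4 to 43), over the 13 among the 15 higher in Cortex arrays it was 7 (1 to 26), and over all 27025 promoters it was 6. The letters TAATCC, bound by OTX proteins, were searched on both strands and found in 0 of these 12 and 0 of these 13 stretches, against 6.38% of all promoters. The T-box letters AGGTGT were found in 0 of the 12 and in 2 of the 13, Neurod6 and 9130024F11Rik, against 12% of all promoters. These matches describe the letters of this window only.

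Regulators of thalamus, midbrain and hindbrain were then listed together, with the list drawn up after the values had been seen. Of 43 matched genes 37 were higher in Hippo and 1 in Cortex arrays. The median difference was 33.69 points, against a median of -0.11 over all genes. Of the 43, 29 were among the 173 genes at least 20 points higher in Hippo arrays, so the list is not independent of them. Its count and median describe the genes chosen. En2, an engrailed gene of the midbrain and hindbrain, averaged 71.0 in Hippo and 25.1 in Cortex arrays, Tal1 85.4 and 44.5, Pou4f1 66.2 and 18.6, and Irx2 76.9 and 41.8 in the same order. En1 passed the test but was dim, at 26.5 ± 12.2 in Hippo and 1.57 ± 0.782 in Cortex arrays. Hox genes, which mark the caudal hindbrain and spinal cord, showed little: 9 of 33 were higher in Hippo and 7 in Cortex arrays (median difference 0.71 points). Genes of monoamine neurons went both ways, with 4 of 13 higher in Hippo and 7 in Cortex arrays, and the dopamine enzyme gene Th averaged 51.8 in Hippo and 55.1 in Cortex arrays. These lists too were drawn up after the values had been seen, and a list of cerebellar genes with them, of which 10 of 15 were higher in Hippo and 4 in Cortex arrays.

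The list for thalamus and habenula included genes that are not transcription factors. It also held genes already named above, among them Shox2, Lhx9 and Pou4f1, so it is not independent of them. Of 20 matched members 16 were higher in Hippo and 1 in Cortex arrays, against 31.2% and 34.7% of all genes. The median difference over the list was 12.63 points. The median percentile over its members ranged from 78.8 to 81.45 in the Hippo vehicle arrays, from 62.9 to 66.4 in the Hypoth arrays and from 50.03 to 59.97 in the Cortex arrays. Slc17a6, the glutamate transporter of subcortical neurons, lay at 97.3, 98.1 and 98.3 in Hippo arrays against 66.9, 76.6 and 80.3 in Cortex arrays. Tcf7l2, a Wnt effector that is strong in the thalamus, had 86.0, 95.7 and 96.6 in Hippo arrays and 32.1, 44.3 and 63.5 in Cortex arrays. Lef1, Calb2, Ntng1 and Zic1 were higher in Hippo arrays as well, while Gbx2, a further thalamic homeobox gene, was near the bottom in both, with 12.95 in Hippo and 13.4 in Cortex arrays.

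The Hypoth arrays served to ask which of these genes were higher in the Hippo arrays than in both other tissues. The 18 vehicle arrays came from 13 mice, since 5 mice gave both a Cortex and a Hypoth array, while 0 gave both a Hippo and a Hypoth array. In a fit that took these arrays as independent, 59 genes (0.324%) stood at least 20 points higher in Hippo than in Hypoth arrays with an adjusted p under 0.05, and 25 of these were also among the 173 that stood as far above the Cortex arrays. The counts were 59 and 25 with only the 12 Hippo and Hypoth arrays, and 60 and 25 with the animal as a random block. The 25 made up 14.5% of the genes above Cortex and 42.4% of those above Hypoth. They included Shox2, Otx2, Pax7, Lhx9, Mab21l1, Gata3, Tfap2b, Tcf7l2, Pou4f1, En2 and Tal1. Tfap2b stood 75.25 ± 1.35 points above the Hypoth arrays (SE, adjusted p = 1.6e-15), where it was at 9.29, 11.7 and 14.3, below its percentiles in Cortex arrays. Other leading genes were shared with the hypothalamus: Dgkk stood at 75.5 ± 1.83 in Hippo arrays but at 90.3 ± 1.17 in Hypoth arrays, and Lhx1os at 68.4 ± 2.21 in Hippo and 74.2 ± 1.35 in Hypoth arrays. For Slc17a6 the difference from Hypoth arrays was 0.52 ± 1.29 points and for Slc17a7 it was -0.01 ± 0.81 points, neither past the test. With only the 12 Hippo and Hypoth arrays the value for Slc17a6 was 0.52 ± 0.124 points and passed it (adjusted p = 0.00258). Over all probe sets the mean profile of the Hippo arrays correlated at r = 0.974 with that of the Hypoth arrays and at r = 0.961 with that of the Cortex arrays, a description across probe sets, which share probe design and are not independent.

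**Figure D3:**
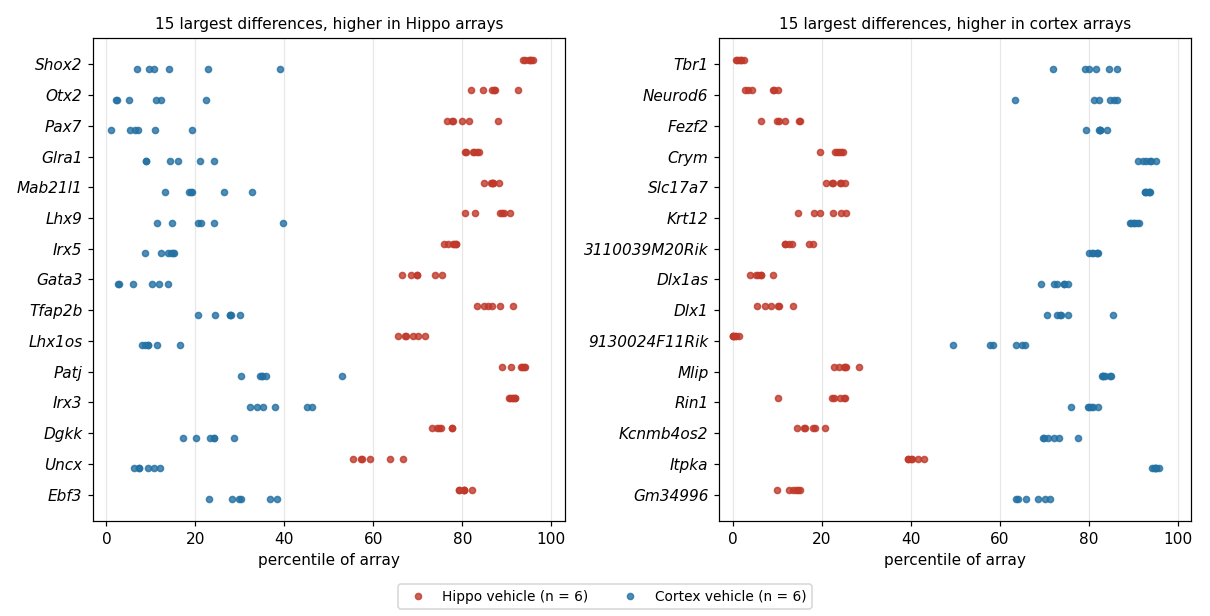
Percentile on the array (horizontal axis) of the 15 genes with the largest differences in each direction, 6 vehicle Hippo arrays in red and 6 vehicle Cortex arrays in blue for each gene. The 2 colours do not overlap in any of the 30 genes, as the choice of these genes required.

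In the other direction, the genes of the cortical excitatory neuron led. Tbr1, a T-box factor of layer 6 neurons, had percentiles of 0.783, 1.59 and 2.67 in Hippo arrays against 72.1, 80.9 and 86.4 in Cortex arrays, and fell by 79.10 ± 1.39 points (SE, adjusted p = 4.2e-12). Fezf2, the factor of layer 5 projection neurons, had 6.36, 11.04 and 15.1 in Hippo arrays and 79.5, 82.6 and 84.0 in Cortex arrays. Slc17a7 fell by 69.92 ± 0.73 points (adjusted p = 7.5e-14) and Neurod6 by 74.20 ± 3.19 points (adjusted p = 2.6e-09). Crym, a thyroid hormone-binding protein, averaged 23.2 ± 1.85 in Hippo and 93.3 ± 1.43 in Cortex arrays. Itpka and Rin1, signalling proteins of dendrites and synapses, averaged 40.7 and 21.6 in Hippo arrays against 95.0 and 79.9 in Cortex arrays. The other 8 of the 15 were the keratin gene Krt12, the homeobox gene Dlx1, its antisense transcript Dlx1as, Mlip, Kcnmb4os2 and 3110039M20Rik, 9130024F11Rik and Gm34996. Dlx1 and Dlx1as lie at 1 locus, and whether their probe sets read only 1 strand was not examined.

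The lists for cortical neurons and layers were mostly lower in Hippo arrays. Of 27 regulators of cortical projection neurons 22 were higher in Cortex and 2 in Hippo arrays, with a median difference of -7.16 points. Emx1 averaged 39.0 in Hippo and 80.5 in Cortex arrays, Tshz3 55.0 and 80.4, and Mef2c 82.4 and 98.9 in the same order. Layer 6 and 6b genes showed the largest median difference of these lists, -19.82 points, with 15 of 19 higher in Cortex and 4 in Hippo arrays. Moxd1 and Cplx3 were lower in Hippo arrays (37.6 against 66.8, and 53.3 against 77.6 in Cortex arrays), but Foxp2, a layer 6 gene that many subcortical neurons also use, was higher, at 94.2 ± 1.38 in Hippo against 74.9 ± 2.53 in Cortex arrays. For layer 2/3 the median difference was -9.88 points (10 of 14 higher in Cortex and 1 in Hippo arrays), with Matn2, Plxnd1 and Inhba among them. Layer 5 genes differed by a median of -4.79 points (12 of 17 higher in Cortex, 3 in Hippo arrays). Layer 4 genes went both ways, with 5 of 11 higher in Hippo and 3 in Cortex arrays, among them Rorb at 83.3 in Hippo and 78.4 in Cortex arrays. In a bulk sample fewer cells of a type and less RNA per cell cannot be told apart.

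The lists for hippocampal fields did not share 1 direction. Of 12 CA1 genes 2 were higher in Hippo and 8 in Cortex arrays (median difference -3.77 points), and of 12 CA3 genes 4 and 7 (-3.60 points). Beside Spink8, the CA1 genes Ccn3, Nr4a1 and Mpped1 fell, with Mpped1 at 74.1 in Hippo and 90.7 in Cortex arrays. Dentate granule cell genes split evenly, 8 of 23 in each direction with a median of 1.02 points, a share close to that of all genes. The cation channel gene Trpc6 averaged 2.37 in Hippo and 35.3 in Cortex arrays, C1ql3 64.8 and 92.5, and the lactase gene Lct 11.3 and 34.7, whereas Sema5a was higher, at 64.5 and 56.3. Of 20 genes known from several hippocampal fields 4 were higher in Hippo and 10 in Cortex arrays, and Lhx9, counted among them, had the largest difference upward. CA2 genes went 4 of 10 up and 2 down, with the CA2 gene Rgs14 at 63.6 ± 1.44 in Hippo and 89.8 ± 0.991 in Cortex arrays. Mossy cell genes went 6 of 10 up and 1 down (median 4.31 points), and those that rose were Drd2, Fgf1, Calb2, Cntn6, Grm8 and Calcrl.

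Genes of inhibitory neurons went both ways, with 10 of 28 listed interneuron genes higher in Hippo and 15 in Cortex arrays. Those that make or load GABA were among the higher in Hippo arrays: Gad1 averaged 98.9 in Hippo and 97.1 in Cortex arrays, Gad2 95.4 and 86.4, and the vesicular transporter Slc32a1 94.7 and 91.9. The other 7 that rose were the calcium-binding proteins Pvalb and Calb2, the peptide precursor Tac1, the nitric oxide synthase Nos1, Adarb2 and the potassium channels Kcnc1 and Kcnc2, with Calb2 at 97.5 in Hippo and 85.3 in Cortex arrays. Among those that fell were homeobox genes of forebrain interneurons. Dlx1 had percentiles of 5.45, 9.37 and 13.5 in Hippo arrays against 70.65, 73.7 and 85.5 in Cortex arrays, and Dlx2, Dlx5, Dlx6 and Lhx6 fell too. The peptides Vip, Npy, Sst, Cck and Cort were lower in Hippo arrays, with Vip at 72.1 against 93.2 in Cortex arrays. The others that fell were Htr3a, Crhbp, Sp8, Tacr1 and Cnr1, with the corticotropin-releasing hormone binding protein Crhbp at 49.1 and 83.3.

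Receptors and channels shifted in the same samples. Among 16 listed GABA receptor subunits, all of GABA-A type but Gabbr1, the subunit Gabrd, which forms extrasynaptic receptors, averaged 41.4 ± 6.67 in Hippo and 86.8 ± 1.22 in Cortex arrays, while the rho subunits Gabrr1 and Gabrr2, known from the retina, were higher in Hippo arrays (44.0 against 13.9 in Cortex arrays, and 52.6 against 24.9). In all, 7 of the 16 were higher in Hippo and 4 in Cortex arrays. Of 47 genes of potassium channels, their partners and HCN channels 26 were higher in Cortex arrays, led by the modifier subunit Kcnv1 (40.5 in Hippo, 87.1 in Cortex arrays) and the inward rectifier Kcnj4 (44.5 and 82.7), and 10 in Hippo arrays, among them Kcnc1, Kcna2 and Kcnip1. Of 41 neuropeptide and peptide receptor genes 12 were higher in Hippo and 23 in Cortex arrays. The neurokinin receptor Tacr3 was at 80.8 ± 0.893 in Hippo and 37.5 ± 5.23 in Cortex arrays, whereas the VIP receptor Vipr1 was at 23.3 ± 2.33 and 67.4 ± 0.737. Of 28 monoamine and cholinergic receptors 6 were higher in Hippo and 16 in Cortex arrays, with the muscarinic receptor Chrm1 at 63.8 and 88.7. Glutamate receptors and their partners showed 10 of 32 higher in Hippo and 18 in Cortex arrays, with Grm2 at 67.4 and 89.9.

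Kinases and scaffolds of synaptic plasticity were mostly lower in Hippo arrays, 22 of 34 against 8 that were higher. Camk2a, the kinase whose promoter drives the Cre transgene of these mice, lay at 94.1, 95.3 and 96.0 in Hippo arrays, at 95.45, 96.0 and 97.0 in Hypoth arrays and at 99.5, 99.6 and 99.7 in Cortex arrays. Near the top of the array a small step in rank is a large one in signal, and on the common log2 scale this difference was -2.31. Of its 6 probe sets 1, at 47.9 in Hippo and 39.6 in Cortex arrays, ran the other way. The calmodulin-binding protein Nrgn had 92.3, 96.7 and 97.3 in Hippo arrays against 99.5, 99.6 and 99.7 in Cortex arrays. Among genes above percentile 90 in both tissues, the syntaxin gene Stx1a, the calcium sensor Hpcal4 and the kinase kinase Camkk2 also fell most on that scale. Those that rose most were Sparc, Vamp1, Bend6, Nefh and Ank1. Vamp1, a synaptic vesicle protein of fast-firing neurons, lay at 98.8, 98.9 and 99.1 in Hippo arrays and 93.5, 94.3 and 95.6 in Cortex arrays, and the neurofilament gene Nefh at 96.9, 97.4 and 97.7 against 89.3, 90.3 and 91.0. Sparc is less sure, since 2 of its probe sets were higher in Hippo arrays and the third was lower, at 51.7 against 63.5.

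Activity-dependent genes were lower in Hippo arrays almost throughout. Of 23 immediate early genes 0 were higher in Hippo and 20 in Cortex arrays, with a median difference of -14.88 points, and in 19 of them all 6 Hippo arrays lay below all 6 Cortex arrays. Egr3 had percentiles of 44.0, 52.9 and 59.7 in Hippo arrays and 89.05, 94.6 and 96.0 in Cortex arrays, and Ptgs2 8.19, 14.0 and 14.7 against 55.5, 57.4 and 60.55. Arc averaged 65.2 ± 3.27 in Hippo and 86.1 ± 6.09 in Cortex arrays (SD, n = 6 each). Fos, Jun and Ier2 did not pass the test, with Fos at 90.3 ± 3.37 in Hippo and 91.9 ± 4.27 in Cortex arrays. The median over the list ranged from 63.35 to 70.0 in Hippo, from 62.0 to 69.25 in Hypoth and from 79.9 to 85.7 in Cortex arrays. Of 19 clock genes 8 were higher in Hippo and 6 in Cortex arrays, against 31.2% and 34.7% of all genes, with Npas2 at 54.9 and 74.5.

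Glial genes moved with the comparison as well. Of 22 oligodendrocyte and myelin genes 18 were higher in Hippo and 2 in Cortex arrays, with a median difference of 6.09 points, and the median over the list ranged from 92.0 to 94.1 in Hippo and from 84.2 to 86.8 in Cortex arrays. Cldn11 had 88.6, 91.0 and 92.7 in Hippo arrays and 64.1, 70.7 and 76.4 in Cortex arrays, and Mog, a myelin surface protein, 79.4, 82.5 and 84.9 against 60.5, 68.6 and 71.7. The 2 that were lower, Pdgfra and Cspg4, are markers of oligodendrocyte precursors, at 85.5 and 66.4 in Hippo against 86.6 and 70.2 in Cortex arrays. Astrocyte genes went 14 of 21 up and 3 down, with angiotensinogen (Agt) at 92.05, 93.7 and 94.5 in Hippo and 57.9, 63.9 and 68.3 in Cortex arrays, and the glutamate transporter Slc1a3 lower. Endothelial and pericyte genes went 12 of 21 up and 0 down (median 2.46 points). Microglial genes went the other way, 0 of 19 up and 8 down (median -3.50 points), with Tmem119 at 70.9 ± 1.68 in Hippo and 80.2 ± 1.51 in Cortex arrays. The part that differing shares of glia had in the neuronal differences was not tested.

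Genes of other neighbouring tissues gave no single direction. The shares over all genes, to be set beside the counts below, were 31.2% higher in Hippo and 34.7% higher in Cortex arrays. Counts near these shares are not a result about a list. Of 19 striatal genes 5 were higher in Hippo and 9 in Cortex arrays, with Drd1 at 45.2 and 69.3 and Drd2 at 66.3 and 49.3, and of 17 genes of claustrum, amygdala and piriform cortex 4 and 10. Of 24 hypothalamic genes 11 were higher in Hippo and 7 in Cortex arrays, and the list median ranged from 41.5 to 46.7 in Hippo, from 84.3 to 88.2 in Hypoth and from 40.8 to 44.9 in Cortex arrays. Leptomeningeal genes went 8 of 24 up and 3 down, ependymal genes 5 of 20 up and 9 down, and genes of subiculum and entorhinal cortex 7 of 15 up and 5 down. Among signalling and guidance lists, Wnt and BMP genes went 21 of 51 up and 16 down, growth factors 15 of 34 and 8, semaphorins and plexins 13 of 31 and 9, and cadherins 10 of 25 and 5. Ephrins and their receptors went 4 of 21 up and 13 down, with a median difference of -4.87 points. Genes of adult neurogenesis went 5 of 19 up and 8 down, and genes of the corticosteroid response 5 of 16 and 8. Nuclear-retained RNAs went 7 of 21 up and 3 down, and cytosolic ribosomal protein genes 7 of 28 and 5, with a median of 0.03 points. Of 4 sex-linked genes 1 was called, Uty, at 42.7 in Hippo and 23.7 in Cortex arrays.

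**Figure D4:**
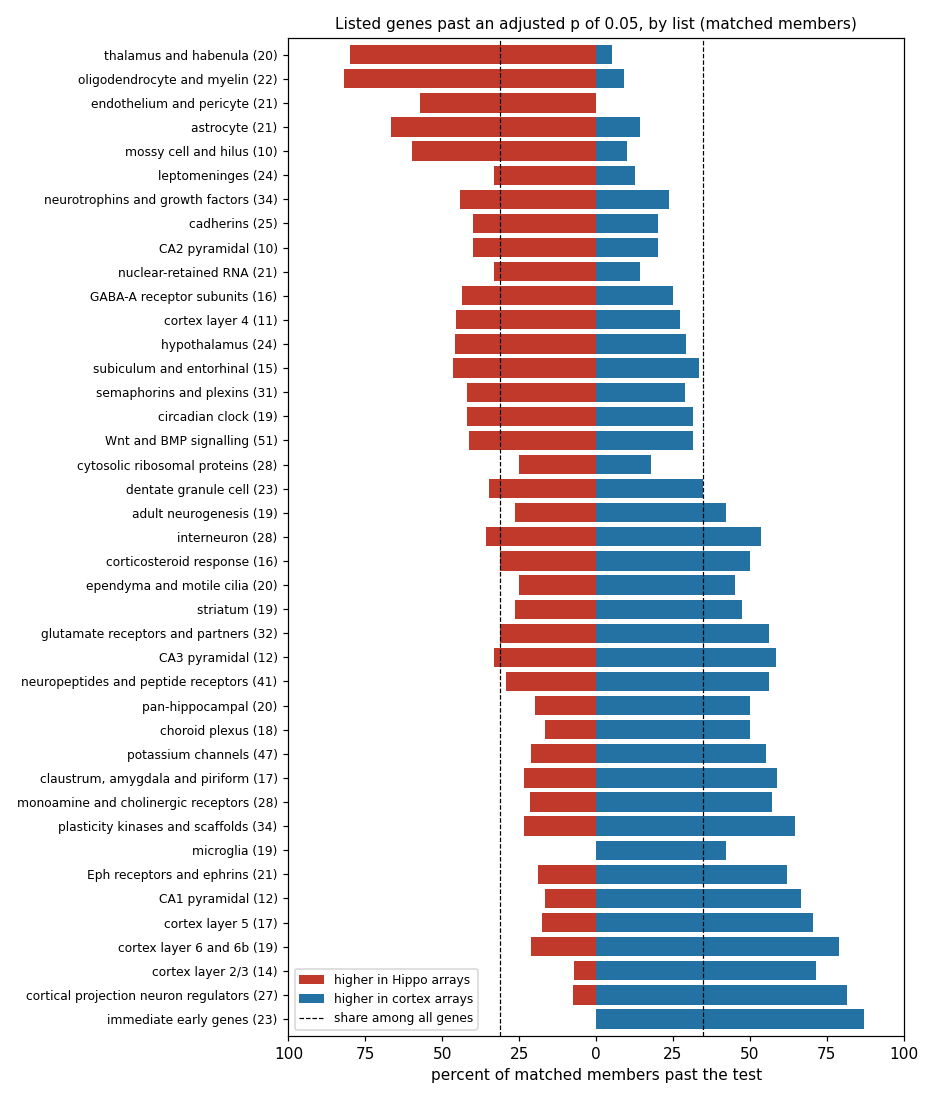
Percent of the matched members (number in brackets) of 41 lists, without the sex-linked genes and the lists added later, that were higher in Hippo arrays (red, to the left) or in Cortex arrays (blue, to the right) at an adjusted p under 0.05. Dashed lines give the shares among all genes, 31.2% and 34.7%, and of the lists drawn, the myelin list and the thalamus and habenula list extend furthest to the left, immediate early genes and cortical regulators to the right.

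No change of the difference with time after the injections passed the test. The Hippo minus Cortex difference at 8 weeks was set against that at 4 weeks, and 0 genes passed limma's adjusted p, with 869 of 18193 at an unadjusted p under 0.05 and a lowest adjusted p of 0.92. Leaving out the Hippo array at 4 weeks, replicate 1, gave 8 genes. The lowest p belonged to Chsy1, Csmd2os, Clec2d, Gap43 and Rian. Gap43, a growth cone protein, stood 4.88 points higher in Hippo arrays at 8 weeks and 3.04 points higher at 4 weeks. The time points alone gave 5089 genes higher in Hippo and 5849 in Cortex arrays at 8 weeks, and 3907 and 4530 at 4 weeks.

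The same contrast in the tamoxifen-injected mice used other animals and repeated the pattern. The cKO arrays of a tissue shared its normalization run with the vehicle arrays, and Hippo and Cortex arrays again came from different mice. Tissue, set of animals and normalization run cannot be told apart here either. In those arrays 5131 genes were higher in Hippo (28.2%) and 6308 higher in Cortex (34.7%). Without the Hippo array that stands apart the counts were 5094 and 6169. Of the 11973 genes called in vehicle arrays, 9923 were called in the same direction and 6 in the opposite one, or 9820 and 5 without that array. Of the 479 genes with at least 20 points in vehicle arrays, 477 were called in the same direction in cKO arrays, also 477 without the array that stands apart. In 456 of the 479 the cKO groups did not overlap, and in 472 without it. Shox2 stood 79.16 ± 1.76 points higher in the Hippo cKO arrays, or 79.91 points without that array, and Tbr1 fell by 66.86 ± 3.17 points, or 70.42 points without that array. Slc17a7 fell by 61.40 ± 7.27 points with it and by 70.06 points without it. The Dicer1 probe set differed little between treatments, with percentiles of 82.5 to 84.2 in cKO and 82.6 to 84.0 in vehicle Hippo arrays, and where it lies relative to the deleted exon was not examined.

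**Figure D5:**
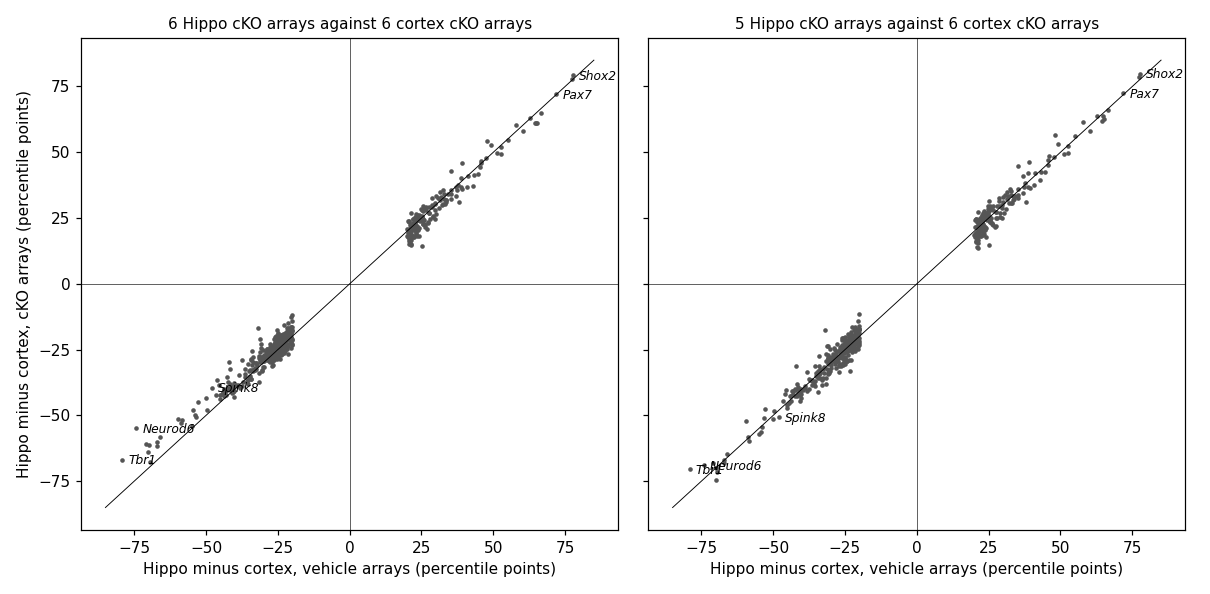
Difference between Hippo and Cortex arrays in percentile points for the 479 genes with at least 20 points in vehicle arrays, cKO arrays (vertical axis) against vehicle arrays (horizontal axis), with the line of equal differences. The left panel holds all 6 Hippo cKO arrays and the right panel leaves out the 8-week replicate 1, which moves Neurod6 from -54.8 to -68.9 points and Spink8 from -39.5 to -50.6 points.

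Whether treatment changed the regional difference was tested over 24 arrays. No gene passed limma's adjusted p (0 of 18193, with 1655 at an unadjusted p under 0.05 and a lowest adjusted p of 0.27). Without the Hippo cKO array that stands apart it was again 0, with 1744 at an unadjusted p under 0.05 and a lowest adjusted p of 0.24. This count rested on the arrays used: without the vehicle Cortex array at 4 weeks, replicate 3, it was 360 genes, and with array weights it was 372. It was 2 without the cKO Cortex array at 8 weeks, replicate 3, and likewise without the cKO Hippo array at 4 weeks, replicate 1 or replicate 2. The lowest p belonged to Slc26a7, Agpat2, Vtn, Tgfbr3 and Fndc8. Slc26a7, an anion transporter, differed by -29.40 points between Hippo and Cortex arrays of cKO mice and by -11.02 points between those of vehicle mice, an interaction of -18.38 ± 3.47 points (SE, adjusted p = 0.27). Without the Hippo cKO array that stands apart its cKO difference was -28.90 points and the interaction -17.88 points (adjusted p = 0.24).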

How the data were processed

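RNA of single animals was hybridised to Affymetrix mouse genome expression arrays. The authors summarised and normalized the probe signals by RMA, separately for each tissue, and deposited log2 values per probe set. No version of the software was stated. The number of arrays limits the precision. Of 45101 probe sets, 64 control probe sets were left out, and the other 45037 were turned into percentile ranks on each array. Of these, 34945 had 1 gene in the platform annotation, 932 several and 9160 none. Genes were taken as 1 probe set each, the one with the highest mean percentile over the 12 vehicle arrays, with no filter on low values. Ranks were fitted in limma 3.58.1 (R 4.3.3) with 4 groups of tissue and time, an intensity trend in eBayes, and Benjamini-Hochberg adjustment over 18193 genes. Interactions with time and with treatment, and the contrast with Hypoth arrays, were fitted in the same way. In simulated data 67, 67 and 66 genes were given known changes of 0.5, 1 and 2 log2. The vehicle fit over 18193 genes recovered 82.1%, 98.5% and 100% of these changed genes, with 7 false calls. The simulation held far fewer changed genes than the 11973 called in the vehicle arrays. It therefore cannot say how many of those 11973 calls are false, nor separate tissue from set of animals and normalization run.

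Groups came from the labels. Named genes were the 15 with the largest rank difference in each direction among called genes whose arrays do not overlap and whose higher tissue reaches percentile 50, the 5 in each direction with the largest common-scale log2 difference above percentile 90 in both tissues, up to 5 members per list plus those needed to describe it, and the 5 lowest p of each interaction. The members, the lists and this rule were chosen with earlier results of these data known. Of 901 genes in 42 lists, 823 were matched; 4 further lists were added later, as were the 20-point threshold, the Hypoth contrast and its fits for animals that gave 2 arrays. Alternatives were other scales, all probe sets, a 5-point minimum, a filter on low values, array weights, single time points, a replicate block and leaving out each array. Figures were drawn with matplotlib 3.10.9. Replicate numbers were not taken as pairs: deviations of same-numbered Hippo and Cortex arrays correlated between -0.101 and 0.128.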

Additional observations from a re-analysis of the deposited data

Results flagged for a closer look

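Among 106 groups of 6 vehicle arrays, for 53 genes of the report, 11 held an array far from the other 5 by Dixon's test at the 95% level (10.4%), where chance gives about 1 in 20. Groups of this kind share arrays, so the 11 are not independent. In the Hippo array at 4 weeks, replicate 3, Rin1 was lowest at percentile 10.12, Wfs1 lowest at 84.43 and Fibcd1 highest at 73.88. In the Hippo array at 4 weeks, replicate 1, Crym was lowest at 19.64, and in that at 8 weeks, replicate 2, Sparc was lowest at 99.57. In the Cortex array at 4 weeks, replicate 3, Neurod6 was lowest at 63.49, C1ql2 lowest at 36.53 and Ank1 highest at 92.95. In the Cortex array at 8 weeks, replicate 3, Patj was highest at 52.85, Dlx1 highest at 85.53 and Fezf2 lowest at 79.46. Apart from Fibcd1 and C1ql2, which did not pass the test, all of these genes kept Hippo and Cortex arrays apart.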

How the results depend on the processing

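The counts of genes higher in Hippo and in Cortex vehicle arrays stayed within 1.5 times of 5669 and 6304 on rank-mapped log2 values (5773 and 6367), as normal scores (5757 and 6372), with a filter on low values (4509 and 4684) and within a time point. On the deposited RMA log2 scale, where the median of all genes was shifted by 0.47, they were 13224 and 1967 (cKO 12372 and 2086). With all probe sets they were 11427 and 11171 (cKO 10387 and 10865) of 34945 tested, more features by construction. With a minimum of 5 points they were 2715 and 3380 (cKO 2675 and 3419), and with the 20-point minimum chosen after seeing the data 173 and 306 (cKO 179 and 285). With the replicate block they were 5576 and 6188 (cKO 5030 and 6210), 11650 of the 11764 calls were shared in direction with the fit without it, and both interactions stayed at 0 genes. The treatment interaction gave 372 genes with array weights. Leaving out 1 array gave 5331 to 6070 genes higher in Hippo and 6034 to 6516 higher in Cortex vehicle arrays, 4794 to 5094 and 5967 to 6285 in cKO arrays, 0 to 8 for time and 0 to 360 for treatment.

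Of 5739 pairs of 222 named genes and settings, 5653 kept direction and side of the threshold, 74 lost the call, 1 gained it and 11 reversed; the cause was not tested. On deposited log2 values Fgf2 (0.23), Arntl (0.024), Rps16 (0.048), Rps25 (0.11) and Agpat2 (0.16) turned higher in Hippo arrays. By the most variable probe set Sparc (-11.8), Pcdh7 (-23.8), Rian (7.49) and Rps6 (-5.12 points) reversed, at 4 weeks alone Clec2d (-1.50) and at 8 weeks alone Chsy1 (-0.876 points). Dim probe sets limit the rank differences of genes near the bottom of the array.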
